A study of Homo sapiens with 12 samples.

Results

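The genes described here are noncoding host genes, whose introns or exons carry small nucleolar RNAs (snoRNAs) or microRNAs, together with the nuclear RNAs MALAT1 and NEAT1. They were taken by symbol from GENCODE 29 (SNHG genes and GAS5, genes named MIR with a number and HG, MALAT1 and NEAT1), found by Ensembl identifier in the count files, and kept where all 12 files together held at least 50 counts. Of 60669 gene identifiers, 88 matched and 47 were kept: 21 snoRNA hosts (20 SNHG genes and GAS5), 24 microRNA hosts, MALAT1 and NEAT1. Of the other matches, 18 had no count in any library and 23 had fewer than 50.

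RNA came from PANC-1 cells, an established human pancreatic ductal adenocarcinoma line. The cells were transfected for 72 h with a control siRNA (Scr1) or an siRNA that the titles call siAS1 and the characteristics call SIK3 siRNA. SIK3 is a salt-inducible kinase. Cells then had no TNF-α, or TNF-α at 100 ng/mL for 30 min or 4 h, which makes 6 groups of 2 biological replicates, all from one line and all transfected. TNF-α is an inflammatory cytokine that activates NF-κB.

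The condition words in the deposited file names differ from the titles in 8 of the 12 libraries, which are 4 of the 6 groups. Both put the same libraries together in pairs, so that the choice changes the name of a group and not its members. Groups are called here by the file-name words: Scr1 or SIK3, then CLM (read as no TNF), 30min or 4h. The pair called Scr1 30min is titled siAS1 unstimulated, Scr1 4h is titled siCtrl1 with TNF 30 min, SIK3 CLM is titled siAS1 with TNF 30 min, and SIK3 30min is titled siCtrl1 with TNF 4 h. Scr1 CLM and SIK3 4h have the same condition in both. Every direction below rests on the file-name words, and directions that turn under the titles are given with their values in the closing section.

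SIK3 mRNA lay at 34.3 to 68.7 CPM (the count of a gene relative to all gene counts of its library, after scaling by the trimmed mean of M values, TMM) in the 6 Scr1 libraries and at 16.3 to 24.0 CPM in the 6 SIK3 libraries. NFKBIA was used as a check of the TNF labels, as an NF-κB target. Its mean levels were 216, 638 and 941 CPM in Scr1 CLM, 30min and 4h. In the corresponding SIK3 groups they were 156, 301 and 560 CPM. By the titles, the siAS1 unstimulated pair would have SIK3 at 42.5 and 68.7 CPM and NFKBIA at a mean of 638 CPM. The pair titled siCtrl1 with TNF 4 h would have SIK3 at 17.3 and 24.0 CPM. Libraries held 13535825 to 22699756 gene counts, so that a gene without a count could lie at up to 0.132 to 0.222 CPM (3 counts, counting error only). Multimapping reads were 4.94 to 45.3% of all reads and were higher in replicate 2 in 6 of 6 groups. In replicate 2 they were 10.15% in SIK3 4h and 27.8 to 45.3% in the other groups. Reads in no annotated gene were 16.5 and 17.1% in SIK3 4h and 8.35 to 10.5% in the other 10 libraries. All 8 markers of PANC-1 cells (keratins, VIM and others) averaged at least 1 CPM. Summed over each list, leukocyte markers reached at most 0.597 CPM, endothelial markers 1.16 CPM, islet markers 0.0791 CPM and hepatocyte markers 0.384 CPM, the 3 acinar markers were at 0, and fibroblast markers, with COL3A1 highest, lay between 15.2 and 36.4 CPM.

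Host genes are transcribed by RNA polymerase II and spliced. Intronic snoRNAs are trimmed out of the debranched introns and guide the chemical modification of ribosomal and spliceosomal RNA, while the exons of many hosts are exported, translated briefly and removed by nonsense-mediated decay. MicroRNA hosts are cut in the nucleus by DROSHA and DGCR8 to release hairpins, which DICER1 turns into mature microRNAs that repress mRNAs through their seed. MALAT1 is retained in nuclear speckles, which hold splicing factors. NEAT1 is the scaffold of paraspeckles. In epithelial tumour cells TNF-α acts through NF-κB, whose transcription targets include the hosts of miR-146a and miR-155. Mature microRNAs were not measured in these libraries, and all values below are for the long host transcripts unless a hosted gene is named.

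The mature sequences below belong to the microRNA hosts on which the results turn, and are shown because several hosts share a seed (bases 2 to 8, in capitals, 5′ to 3′). They were copied from RefSeq (GRCh38.p14), in which 45 of 46 annotated hosted microRNA genes were matched, giving 75 mature entries over 25 hosts.
miR-146a-5p (MIR3142HG): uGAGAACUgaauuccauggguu
miR-155-5p (MIR155HG): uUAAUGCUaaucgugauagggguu
miR-221-3p (MIR222HG): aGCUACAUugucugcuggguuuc
miR-222-3p (MIR222HG): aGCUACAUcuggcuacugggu
miR-17-5p (MIR17HG): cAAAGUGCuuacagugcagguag
miR-20a-5p (MIR17HG): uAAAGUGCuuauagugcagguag
let-7a-5p (MIR100HG): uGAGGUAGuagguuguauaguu
miR-4500 (MIR4500HG): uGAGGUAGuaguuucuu
miR-100-5p (MIR100HG): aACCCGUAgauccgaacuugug
miR-22-3p (MIR22HG): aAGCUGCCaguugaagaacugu
miR-31-5p (MIR31HG): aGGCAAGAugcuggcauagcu
miR-181a-5p (MIR181A1HG and MIR181A2HG): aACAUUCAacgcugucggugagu
miR-29b-3p (MIR29B2CHG): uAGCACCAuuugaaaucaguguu
miR-221 and miR-222 share one seed within MIR222HG, miR-17 and miR-20a share one within MIR17HG, and the let-7 seed occurs in MIR100HG, MIR99AHG, MIR4458HG and MIR4500HG. MIR181A1HG on chromosome 1 and MIR181A2HG on chromosome 9 carry the same miR-181a-5p.

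Counts were compared with edgeR's quasi-likelihood test over all 12 libraries (16695 genes tested), and a gene is called changed at a Benjamini-Hochberg adjusted p under 0.05 over all genes. Of the 47 members, 45 passed the filter on low counts. SNHG22 and SNHG25 did not, with 54 and 78 counts in all, and are named for that reason alone. Replicate numbers pair the libraries (the check is in the methods), so the fit was repeated with that number as a blocking factor, and the text gives its calls where they change. Fewer cells and less RNA per cell cannot be told apart in bulk RNA.

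Without the replicate block, the members called higher with TNF under the control siRNA were MIR3142HG, MIR155HG and MIR222HG, all microRNA hosts. At 30 min 1 of the 45 tested members was higher and 0 lower (2.22 and 0% of members, 0.27 and 0.024% of all genes tested). At 4 h 3 were higher and 1 lower (6.67 and 2.22% of members, 5.53 and 3.46% of all genes tested). The 4 h shares lay near those of all genes. The median log2 difference of the members was -0.12 at 30 min and 0.01 at 4 h, against -0.00 and -0.03 over all genes. With the replicate block the counts were 2 and 0 at 30 min (1.81 and 0.964% of all genes tested in that fit), and 7 and 3 at 4 h (11.3 and 12.2%). Those are 4.44 and 0% of members at 30 min, and 15.6 and 6.67% at 4 h. The block added NEAT1 at 30 min, and at 4 h NEAT1, MIR17HG and the snoRNA hosts SNHG12 (log2 0.65) and SNHG15 (log2 0.40) as higher and MIR4435-2HG and SNHG14 as lower. Without Scr1 CLM replicate 2, or without Scr1 4h replicate 1, 2 members were called at 4 h.

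MIR3142HG (chr5:160438594-160487426, plus strand, 3 merged exons), the host of miR-146a and miR-3142, rose at both times. miR-146a is known for repressing TRAF6 and IRAK1 downstream of Toll-like and interleukin receptors. The host transcript MIR3142HG was at 3.22 and 2.83 CPM in Scr1 CLM, 13.8 and 14.9 CPM in Scr1 30min, and 13.7 and 15.4 CPM in Scr1 4h. The libraries with TNF did not overlap those without it, and both times stood at about one level. The rise was 4.72-fold at 30 min (log2 2.24 ± 0.21 SE, adjusted p = 0.00122, edgeR) and 4.77-fold at 4 h (log2 2.26 ± 0.21, adjusted p = 9.95e-05, edgeR), with n = 2 libraries a group.

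MIR3142HG also rose under the SIK3 siRNA, but was called there at 4 h and not at 30 min. Its level was 1.17 and 0.612 CPM in SIK3 CLM, 1.48 and 1.37 CPM in SIK3 30min, and 5.31 and 4.91 CPM in SIK3 4h. All SIK3 libraries with 30 min of TNF lay below the Scr1 libraries without TNF. The 4 h rise was 5.43-fold (log2 2.44 ± 0.24, adjusted p = 0.000624, edgeR), and at 30 min the log2 difference was 0.60 ± 0.27 (adjusted p = 1, edgeR). The 30 min response differed between the siRNAs by -1.63 ± 0.34 on the log2 scale, with an unadjusted p of 0.000837 and an adjusted p of 1 (edgeR), or 0.0654 with the replicate block. The difference between the 30 min responses did not pass the test. Under the titles, the same libraries give a 4 h response of MIR3142HG of -1.09 (control siRNA) and -1.49 (siAS1) on the log2 scale.

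RefSeq places the start of MIR3142HG inside the GENCODE gene, and 120 bases before that start lies a match to the NF-κB (κB) consensus, shown here in capitals with 25 bases on each side (GRCh38.p14, chr5:160468106-160468165, plus strand).
MIR3142HG upstream: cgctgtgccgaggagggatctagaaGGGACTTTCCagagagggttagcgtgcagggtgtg
The κB consensus of 10 bases was searched on both strands from 250 bases before to 50 after each RefSeq start. It occurred in 5.91% of 35116 promoters in the table and in 4 of 54 windows (7.41%) of the 40 members that have one, those of MIR3142HG, MIR100HG, MIR99AHG and SNHG4. A match is a description of letters and not a bound site.

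MIR155HG (chr21:25561909-25575168, plus strand), the host of miR-155 and a known product of activated immune cells, was at low counts. Its level was 0.740 and 0.0707 CPM in Scr1 CLM, 0.603 and 0.214 CPM in Scr1 30min, and 3.52 and 2.69 CPM in Scr1 4h. The 4 h libraries lay above all Scr1 libraries of the earlier times. The rise at 4 h was 6.98-fold (log2 2.80 ± 0.60, adjusted p = 0.0164, edgeR), on 92 counts against 15. The count ratio was 6.60, with an exact 95% counting interval of 3.80 to 12.3. Such intervals, here and below, pool the counts of 2 libraries and leave out the spread between replicates. The 15 counts were 14 in Scr1 CLM replicate 1 and 1 in replicate 2. The call was lost without Scr1 CLM replicate 2 (log2 2.07, adjusted p = 0.0504, edgeR) or without Scr1 4h replicate 1 (log2 2.59, adjusted p = 0.0942, edgeR). Under the SIK3 siRNA its level was 0.711 and 0.612 CPM without TNF and 2.06 and 2.76 CPM at 4 h. That log2 difference of 1.84 ± 0.55 had an adjusted p of 0.11 (edgeR), and of 0.0031 with the replicate block.

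MIR222HG (chrX:45745211-45770274, minus strand), the host of miR-221 and miR-222, which repress the cell cycle inhibitor CDKN1B, rose with TNF at 4 h under both siRNAs. Its level was 11.3 and 16.5 CPM in Scr1 CLM, 18.5 and 15.9 CPM in Scr1 30min, and 27.3 and 29.1 CPM in Scr1 4h. In the SIK3 groups it was 26.2 and 20.5 CPM in CLM, 31.5 and 30.6 CPM at 30 min, and 57.0 and 58.4 CPM at 4 h. The highest libraries of the series were the 2 of SIK3 4h, with no overlap with any other group. The 4 h rise was 2.04-fold under Scr1 (adjusted p = 0.00677, edgeR) and 2.46-fold under SIK3 siRNA (adjusted p = 0.00378, edgeR). MIR181A2HG, a host of miR-181a and miR-181b, was the member called lower at 4 h under Scr1, from 0.899 and 0.778 to 0.304 and 0.158 CPM (log2 -1.79 ± 0.48, adjusted p = 0.0473, edgeR). That call rests on 7 counts against 28, and was lost without any one of the 4 libraries compared (adjusted p 0.109 to 0.244, edgeR).

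**Figure D1:**
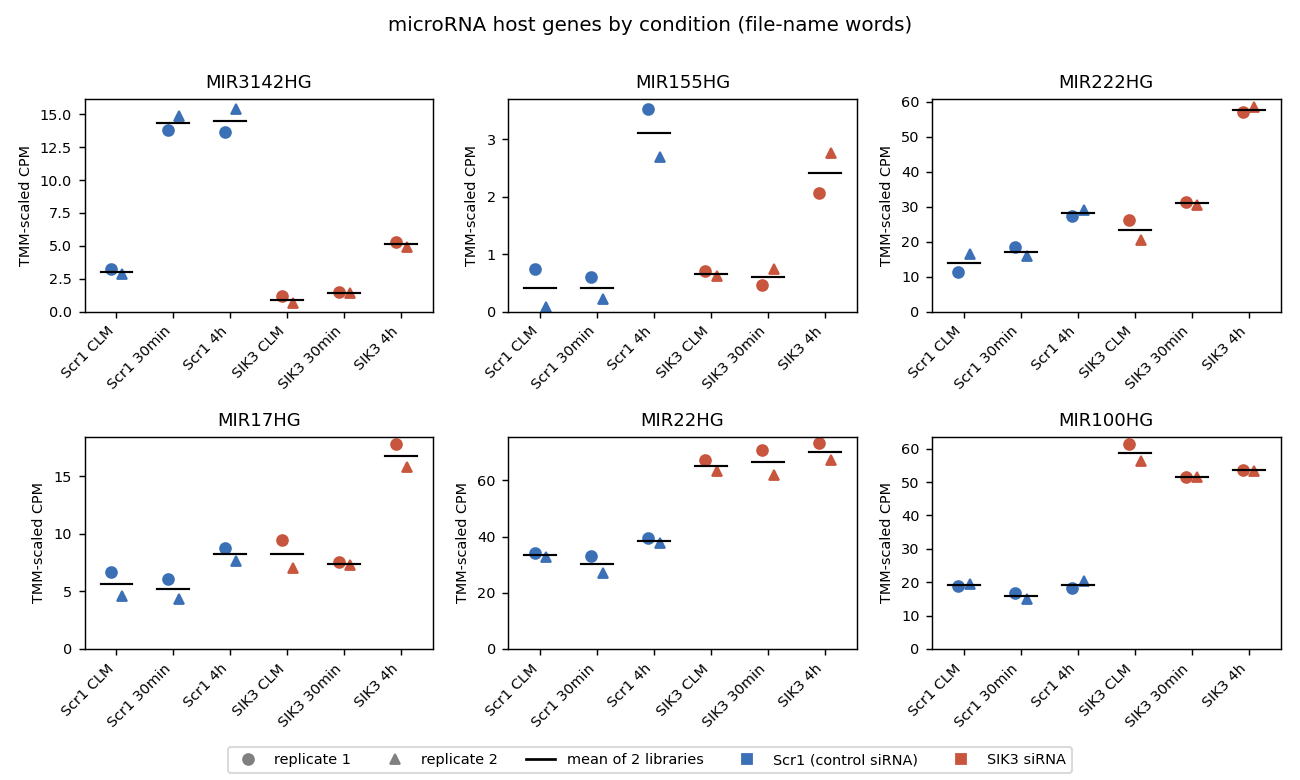
TMM-scaled CPM (vertical axes, from 0) of 6 microRNA host genes in each of the 12 libraries, by condition (horizontal axes); circles are replicate 1, triangles replicate 2 and bars the mean of 2 libraries. MIR3142HG stands at 13.8 to 14.9 CPM in Scr1 30min and at 1.37 to 1.48 CPM in SIK3 30min, while MIR100HG and MIR22HG are higher in all SIK3 libraries than in all Scr1 libraries.

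TNF under the SIK3 siRNA was followed at 4 h by higher levels of 5 of 24 microRNA hosts and 2 of 19 snoRNA hosts, with median log2 differences of 0.12 and 0.48 over the hosts tested. At 30 min no member was called higher or lower (0.138 and 0.012% of all genes tested), with 3 at an unadjusted p under 0.05 by edgeR (6.67% of members and 4.34% of all genes) and 0 called by DESeq2. At 4 h 7 were called higher and 0 lower (3.65 and 0.767% of all genes tested): MIR3142HG, MIR222HG, MIR17HG, MIR181A1HG, MIR29B2CHG, SNHG12 and SNHG3. The median log2 difference was 0.29 at 4 h, against -0.00 over all genes. With the replicate block 20 were higher and 0 lower at 4 h (12.5 and 9.36% of all genes tested in that fit), among them 12 of 19 snoRNA hosts, and MALAT1 and NEAT1. At 30 min 1 was then higher (MIR29B2CHG) and 1 lower (SNHG12), against 1.67 and 1.7% of all genes. Leaving out 1 library lowered the 4 h count to 3 without SIK3 CLM replicate 1, 2 without SIK3 CLM replicate 2 and 3 without SIK3 4h replicate 2.

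MIR17HG (chr13:91347820-91354579, plus strand), the host of the miR-17-92 cluster and a MYC target, was at 9.49 and 7.01 CPM in SIK3 CLM, 7.54 and 7.31 CPM in SIK3 30min, and 17.8 and 15.8 CPM in SIK3 4h. The 4 h rise was 2.02-fold (log2 1.02 ± 0.22, adjusted p = 0.0337, edgeR). Under Scr1 it went from 6.66 and 4.59 CPM to 8.80 and 7.67 CPM at 4 h, a log2 difference of 0.54 ± 0.23 (adjusted p = 0.242, edgeR, or 0.0145 with the replicate block). The rise under SIK3 siRNA was lost without any one of its 4 libraries (adjusted p 0.0681 to 0.232, edgeR).

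SNHG12 (chr1:28578538-28583132, minus strand) holds 5 annotated snoRNA entries, with SNORA16A entered repeatedly at the same place. SNHG12 was at 36.7 and 28.9 CPM in SIK3 CLM, 29.6 and 22.4 CPM in SIK3 30min, and 84.4 and 70.4 CPM in SIK3 4h. The 4 h rise was 2.36-fold (log2 1.24 ± 0.18, adjusted p = 0.00481, edgeR). Without SIK3 CLM replicate 2 the adjusted p was 0.063. SNHG3, the host of SNORA73B and its copy, went from 61.7 and 58.5 to 95.4 and 102 CPM, a rise of 1.65-fold (log2 0.72 ± 0.12, adjusted p = 0.00894, edgeR). Its adjusted p was 0.0585 without SIK3 CLM replicate 1, 0.0874 without SIK3 CLM replicate 2 and 0.0795 without SIK3 4h replicate 2. In both genes the 2 libraries of SIK3 4h were the highest of all 12.

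MIR181A1HG, the second miR-181a host, was at 1.88 and 1.50 CPM in SIK3 CLM and at 3.12 and 3.53 CPM in SIK3 4h, a rise of 1.94-fold (adjusted p = 0.0493, edgeR). It was lost without any one of the 4 libraries (adjusted p 0.137 to 0.269, edgeR), with DESeq2 (adjusted p = 0.156), with library totals (0.0587), with DESeq2 size factors (0.0541) and without a filter (0.0651). MIR29B2CHG, the host of miR-29b and miR-29c, known to repress collagen mRNAs, was at 0.209 and 0.0680 CPM in SIK3 CLM and at 0.797 and 1.38 CPM in SIK3 4h. Those are 6 counts against 37, a ratio of 6.93 with an exact 95% counting interval of 2.90 to 20.1. The fitted call (adjusted p = 0.0146, edgeR) was lost without SIK3 CLM replicate 1, SIK3 CLM replicate 2 or SIK3 4h replicate 2 (adjusted p 0.0612, 0.104 and 0.138).

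The SIK3 siRNA was compared with Scr1 at each time, and more members were higher than lower at all 3. Without TNF 11 were higher and 3 lower (18.9 and 19.8% of all genes tested), at 30 min 11 higher and 4 lower (18.2 and 19.6%), and at 4 h 23 higher and 1 lower (19.6 and 19.9%). Of the 45 tested members, 24.4, 24.4 and 51.1% were higher, so that without the block the first 2 shares lay closer to the background than the 4 h share. The median log2 differences were 0.41, 0.40 and 0.84, against 0.01, -0.01 and 0.03 over all genes. With the replicate block the counts were 24 and 3 without TNF (29.2 and 29.1% of all genes tested in that fit), 24 and 5 at 30 min (28.5 and 30.0%), and 31 and 2 at 4 h (29.7 and 29.1%). The higher members are then 53.3, 53.3 and 68.9% of those tested, above the background at each time. Leaving out 1 library lowered the 30 min count of 15 calls to 7 without Scr1 30min replicate 1, 8 without Scr1 30min replicate 2 and 9 without SIK3 30min replicate 2. The SIK3 4h libraries are the ones with the higher share of reads in no annotated gene. SIK3 4h replicate 2 also has 10.15% multimapping reads, against 41.49% in Scr1 4h replicate 2. The part of these shares in the 4 h counts was not tested.

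Among the microRNA hosts, 6 were higher without TNF, 6 at 30 min and 10 at 4 h, of 24. Of all genes tested, 18.9, 18.2 and 19.6% were higher at these times. MIR100HG (chr11:122028327-122556721, minus strand), the host of let-7a-2, miR-100 and miR-125b-1, was at 18.3 to 20.3 CPM in Scr1 4h, 19.0 and 19.4 CPM in Scr1 CLM, and 16.9 and 15.0 CPM in Scr1 30min. In the SIK3 libraries it was at 61.3 and 56.3 CPM in CLM, 51.5 and 51.6 CPM at 30 min, and 53.6 and 53.4 CPM at 4 h. All 6 SIK3 libraries lay above all 6 Scr1 libraries. It was 3.07-fold higher without TNF, 3.23-fold higher at 30 min and 2.78-fold higher at 4 h (adjusted p 3.52e-06, 2.84e-06 and 9.32e-06, edgeR).

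MIR22HG, the host of miR-22 and a gene that responds to cell stress, was at 27.1 to 39.5 CPM over the 6 Scr1 libraries and at 62.0 to 73.3 CPM over the 6 SIK3 libraries, without overlap. It was 1.95-, 2.21- and 1.82-fold higher at the 3 times (adjusted p 0.000183, 6.59e-05 and 0.000384, edgeR). MIR4500HG, which carries a microRNA with the let-7 seed, was at 2.55 to 3.62 CPM under Scr1 and at 5.85 to 7.99 CPM under SIK3 siRNA (2.24-, 2.07- and 2.40-fold, adjusted p 0.000775, 0.0011 and 0.000537, edgeR). MIR222HG was higher by 0.76, 0.85 and 1.03 on the log2 scale (adjusted p 0.00888, 0.00447 and 0.00145, edgeR). Its call without TNF was lost without Scr1 CLM replicate 1 (log2 0.48) or SIK3 CLM replicate 1 (log2 0.55).

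MIR31HG (chr9:21455642-21559669, minus strand), the host of miR-31 beside the CDKN2A locus, was at 2.14 to 3.58 CPM under Scr1 and at 5.35 to 8.21 CPM under SIK3 siRNA. It was 2.11-, 1.92- and 2.62-fold higher (adjusted p 0.00584, 0.0114 and 0.00151, edgeR), and the 30 min call was lost without either Scr1 30min library or SIK3 30min replicate 2 (adjusted p 0.0504 to 0.079). Of its merged exon bases 40.7% also lie in an annotated gene on the opposite strand. The counts used are those that STAR gives without regard to strand. A read over exons of both genes is then ambiguous and counted for neither, where the counting annotation holds both. Reads of either strand over the other exon bases count for MIR31HG. MIR9-3HG, a host of miR-9, rose without TNF and at 4 h (2.77- and 4.07-fold) on levels of 0.316 to 1.93 CPM over the 12 libraries. Its call without TNF was lost without Scr1 CLM replicate 2 or SIK3 CLM replicate 1. MIR381HG, in the imprinted microRNA cluster of chromosome 14, was higher at 30 min and 4 h. At 4 h it had 34 counts against 2, a ratio of 16.0 with an exact 95% counting interval of 4.09 to 137, and at 30 min 43 against 8, a ratio of 5.29 (2.46 to 13.0). The 4 h call was lost without Scr1 4h replicate 1, and the 30 min call without either Scr1 30min library or SIK3 30min replicate 2. MIR17HG, MIR181A2HG and MIR4435-2HG were higher at 4 h by 2.04-, 3.84- and 1.41-fold. MIR181A2HG was lost without Scr1 4h replicate 2 or SIK3 4h replicate 1, and MIR4435-2HG without any one of the 4 libraries (adjusted p 0.0506 to 0.0684, edgeR). MIR4435-2HG has a near-identical copy elsewhere on its chromosome, which makes its level uncertain.

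Fewer microRNA hosts were lower: 3 without TNF, 4 at 30 min and 1 at 4 h, of 24. Of all genes tested, 19.8, 19.6 and 19.9% were lower at these times. MIR3142HG was lower at all 3 times, by 3.23-fold without TNF, 10.0-fold at 30 min and 2.84-fold at 4 h (adjusted p 0.000562, 4.37e-06 and 0.000279, edgeR), from the library values given above. MIR181A1HG was lower without TNF and at 30 min (2.15- and 1.90-fold), the second call being lost without Scr1 30min replicate 1 or SIK3 30min replicate 1. MIR29B2CHG was lower without TNF, at 6 counts against 25, a ratio of 0.216 with an exact 95% counting interval of 0.072 to 0.539, and its call was lost without Scr1 CLM replicate 1 or SIK3 CLM replicate 2. MIR4453HG and MIR600HG were lower at 30 min (2.23- and 1.57-fold), and both calls were lost whichever of the 4 libraries was left out (adjusted p 0.0981 to 0.134 and 0.0607 to 0.124, edgeR).

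**Figure D2:**
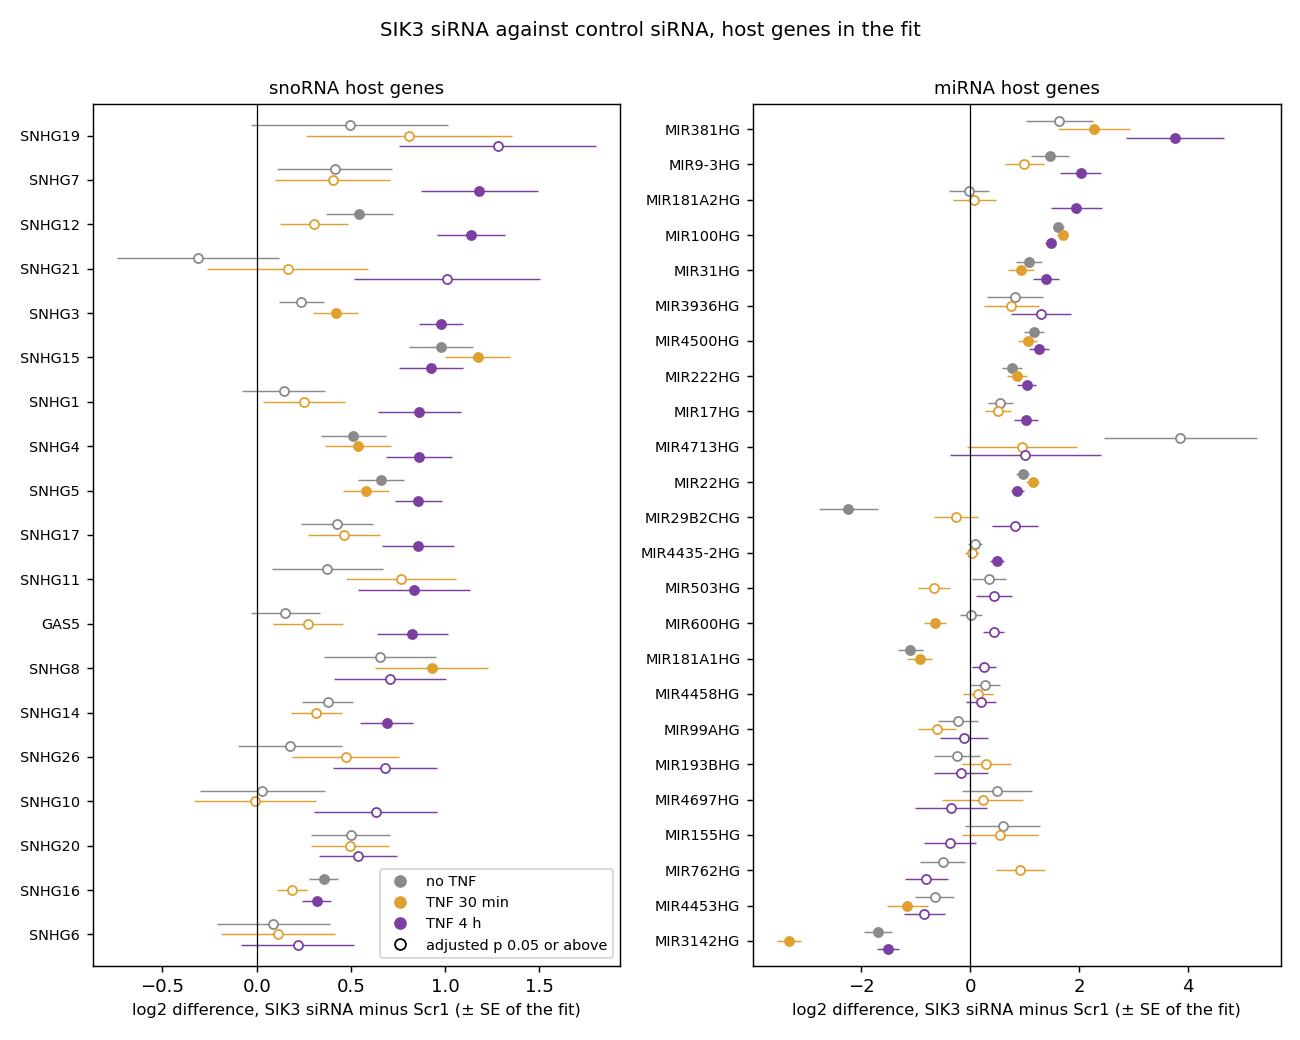
Log2 difference between the siRNAs (horizontal axes, SIK3 minus Scr1) with the standard error of the fit for the 19 snoRNA hosts and 24 microRNA hosts tested, at no TNF (grey), 30 min (orange) and 4 h (purple); open circles have an adjusted p of 0.05 or above. All 19 snoRNA hosts lie above 0 at 4 h, of which 12 were called, and MIR3142HG lies furthest below 0 at 30 min.

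Of the snoRNA hosts, 5 were higher without TNF, 5 at 30 min and 12 at 4 h, of 19 tested, and none was lower (the background shares are those given for each time). Blocked by replicate, 13, 16 and 18 were higher and 0 lower. Their median log2 difference was 0.38, 0.42 and 0.86 at the 3 times. SNHG15, SNHG4 and SNHG5 were called at all 3. SNHG15, a short-lived transcript that accumulates when translation is blocked, was at 17.2 to 33.5 CPM over the Scr1 libraries and 37.5 to 61.7 CPM over the SIK3 libraries, with no overlap. It was 1.97-, 2.25- and 1.90-fold higher (adjusted p 0.00143, 0.000499 and 0.00196, edgeR). SNHG5, host of the U50 snoRNAs, was at 71.0 to 90.5 CPM against 119 to 155 CPM and was 1.58-, 1.50- and 1.81-fold higher (adjusted p 0.00219, 0.0045 and 0.000497, edgeR).

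SNHG4 was 1.43-, 1.45- and 1.82-fold higher, with the first 2 calls lost without 3 and all 4 of their libraries. Its adjusted p at 4 h was 0.00375 (edgeR). GAS5 (chr1:173863900-173868882, minus strand), a growth-arrest transcript and classic snoRNA host, was at 142 and 125 CPM in Scr1 CLM, 133 and 105 CPM in Scr1 30min, and 147 and 121 CPM in Scr1 4h. In the SIK3 groups it was at 167 and 129 CPM, 162 and 126 CPM, and 257 and 218 CPM. The SIK3 4h libraries stood above all others, while the remaining groups overlapped. GAS5 was 1.77-fold higher at 4 h (log2 0.83 ± 0.19, adjusted p = 0.00636, edgeR), and its differences of 0.15 and 0.27 at the earlier times had adjusted p of 0.558 and 0.28. Both were called with the replicate block (log2 0.15, adjusted p = 0.0339, and log2 0.27, adjusted p = 0.00031, edgeR), as was the rise from SIK3 CLM to SIK3 4h (log2 0.69, adjusted p = 1.12e-08).

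SNHG1, host of several snoRNAs of the U22 group, was at 41.7 and 35.4 CPM in Scr1 4h and 77.6 and 62.9 CPM in SIK3 4h (1.82-fold, adjusted p = 0.0117, edgeR). SNHG12 was at 39.4 and 30.8 against 84.4 and 70.4 CPM at 4 h (2.20-fold, adjusted p = 0.000833, edgeR). SNHG3 was at 51.4 and 49.0 against 95.4 and 102 CPM (1.97-fold, adjusted p = 0.000182, edgeR). In all 3, which are named because they were called, the libraries at 4 h did not overlap between the siRNAs. SNHG7, SNHG17, SNHG11 and SNHG14 were 2.27-, 1.81-, 1.79- and 1.61-fold higher at 4 h. Of the exon bases of SNHG7, 25.2% lie under a gene on the opposite strand. SNHG14 is the long host of the SNORD115 and SNORD116 clusters. SNHG16 was 1.28-fold higher without TNF and 1.25-fold higher at 4 h, with 30.6% of its exon bases under a gene on the opposite strand, and SNHG8 was 1.91-fold higher at 30 min. SNHG12 was also called without TNF (1.46-fold), and SNHG3 at 30 min (1.34-fold).

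Several of these calls were lost when 1 library was left out, which leaves a group with 1 library. Those fits had no replicate block. At 4 h, SNHG1 and SNHG7 were lost without Scr1 4h replicate 2 or SIK3 4h replicate 1, SNHG17 without Scr1 4h replicate 1, SNHG16 without Scr1 4h replicate 1 or SIK3 4h replicate 2, and SNHG11 without Scr1 4h replicate 2 or either SIK3 4h library. At 30 min SNHG3 was lost without any one of 4 libraries, and SNHG8 without either Scr1 library or SIK3 30min replicate 1. Without TNF SNHG12 was lost without either Scr1 CLM library or SIK3 CLM replicate 1. GAS5, SNHG3, SNHG4, SNHG5, SNHG12, SNHG14 and SNHG15 kept their 4 h call without any 1 of the 4 libraries. SNHG6, the highest host by length after MALAT1, was not called in any comparison without the replicate block, at 54.8 to 91.4 CPM under Scr1 and 66.8 to 102 CPM under SIK3 siRNA. With the block it was higher at 4 h (log2 0.22, adjusted p = 0.0147, edgeR). Of the exon bases of SNHG6, 29.3% lie under a gene on the opposite strand. MIR4458HG, called nowhere with or without the block, was at 7.0 to 13.6 CPM over the 12 libraries.

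**Figure D3:**
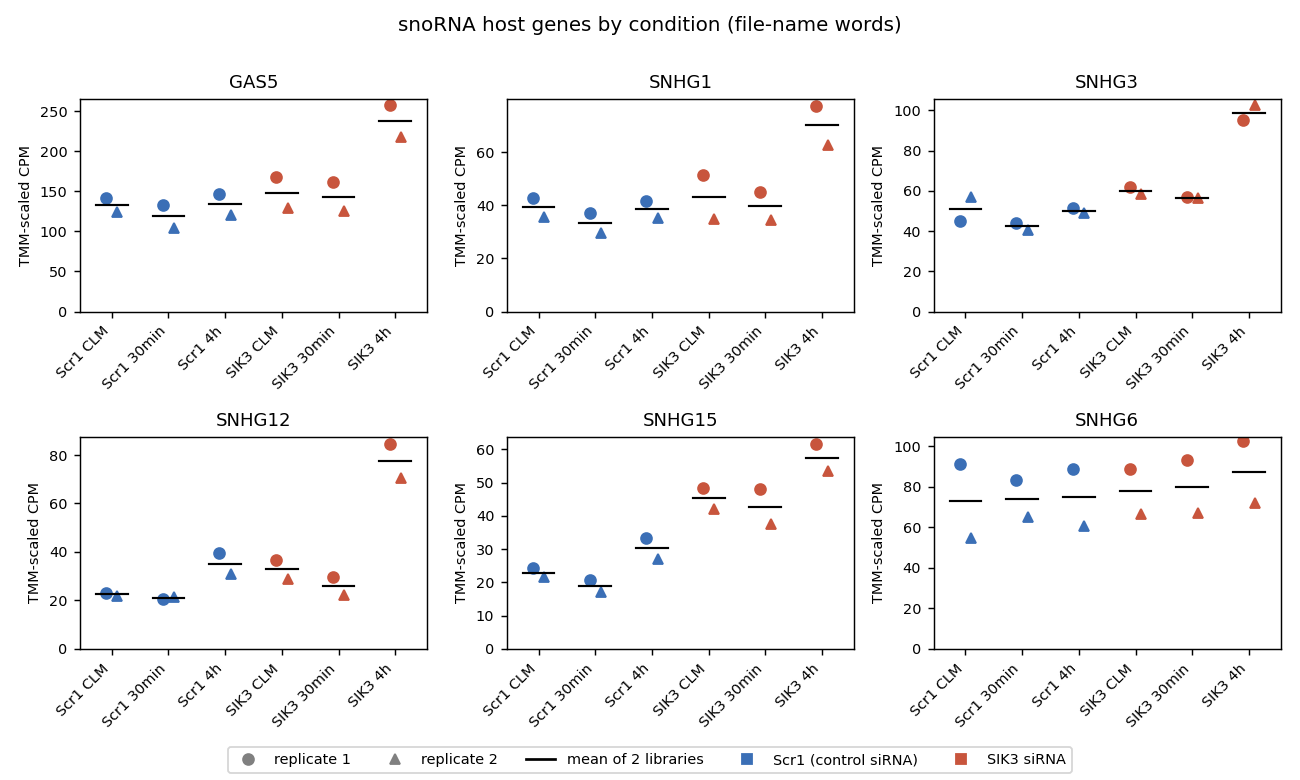
TMM-scaled CPM (vertical axes, from 0) of 6 snoRNA host genes in each of the 12 libraries, by condition; circles are replicate 1, triangles replicate 2 and bars the mean of 2 libraries. GAS5, SNHG1, SNHG3 and SNHG12 have their highest libraries in SIK3 4h, SNHG15 is higher in all SIK3 libraries than in all Scr1 libraries, and SNHG6 overlaps between conditions.

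Many snoRNA hosts are known as 5′ TOP genes, whose transcripts begin with a C and a run of pyrimidines that ties them to the regulation of ribosomal protein mRNAs. The start regions of members with and without such a run are printed to show it (RefSeq starts, GRCh38.p14, 40 bases before to 50 after the start, with the run in capitals). They lie at chr1:28581824-28581913 (SNHG12, minus strand), chr5:139274061-139274150 (SNHG4, plus strand), chr6:85678684-85678773 (SNHG5, minus strand), chr9:136728135-136728224 (SNHG7, minus strand) and chr11:62855836-62855925 (SNHG1, minus strand).
SNHG12: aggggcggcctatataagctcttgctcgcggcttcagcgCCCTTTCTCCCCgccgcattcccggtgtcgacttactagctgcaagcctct
SNHG4: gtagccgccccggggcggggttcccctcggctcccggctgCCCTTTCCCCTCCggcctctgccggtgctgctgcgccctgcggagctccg
SNHG5: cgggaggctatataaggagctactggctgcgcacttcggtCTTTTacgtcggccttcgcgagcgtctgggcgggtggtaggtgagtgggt
SNHG7: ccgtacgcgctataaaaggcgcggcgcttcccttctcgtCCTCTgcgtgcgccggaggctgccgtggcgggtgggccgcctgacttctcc
SNHG1: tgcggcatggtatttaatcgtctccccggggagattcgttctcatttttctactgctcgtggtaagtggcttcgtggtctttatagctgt
A run had at least 5 pyrimidines and began with C within 5 bases of the start, on the transcribed strand. It occurred in 8 of the 18 snoRNA hosts with a RefSeq promoter (44.4%) and in 21.1% of all promoters searched. Among the microRNA hosts it occurred in 10 of 34 windows (29.4%). GAS5 and SNHG3 were among the snoRNA hosts without it. RefSeq and GENCODE starts can differ, so that a gene without the run in this window may hold it at another start. Of 19 tested 5′ TOP mRNAs of ribosomal proteins and translation factors, 6 were higher and 0 lower without TNF, 4 and 0 at 30 min, and 5 and 1 at 4 h. These compare the siRNAs, and of all genes tested 18.9, 18.2 and 19.6% were higher. The shares of all genes lower were 19.8, 19.6 and 19.9%. EEF2, the elongation factor, was 1.43-fold higher at 4 h, RPL13A 1.28-fold and RPSA 1.54-fold, while NPM1 was 1.18-fold lower.

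Of the 18 proteins that form or assemble snoRNPs, 6 were higher and 3 lower without TNF, 5 and 3 at 30 min, and 6 and 3 at 4 h. NOP56, a core box C/D protein, was 1.72-fold higher at 4 h (adjusted p = 5.06e-05, edgeR), and ZNHIT3 and RPAP3, assembly factors, were 1.79- and 1.46-fold lower. Of 17 factors of nonsense-mediated decay and mRNA turnover, 2 were higher and 6 lower without TNF, 1 and 6 at 30 min, and 2 and 6 at 4 h. DCP2, the decapping enzyme, was 2.98-fold lower and XRN1, the 5′ exonuclease, 1.96-fold lower at 4 h. Of 16 microRNA processing genes, 3 were higher and 3 lower, 3 and 4, and 3 and 2 at the 3 times, with DICER1 1.96-fold lower and TARBP2 2.31-fold higher at 4 h. Under TNF these lists held few calls: PNRC2 rose at 4 h under both siRNAs, and TNRC6A was lower at 4 h under Scr1. The lists were chosen with earlier results known, and the shares of all genes called at these times are those given above.

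A second readout of the same loci came from the small RNA genes annotated inside the hosts on the same strand. Of 176, 158 were in the files, 87 had no count and 21 had at least 50, and 17 entered the fit. Many of the genes without a count overlap an exon of their host, as do SNORD22 in SNHG1 and SNORA73A in SNHG3. Reads over both are ambiguous and counted for neither, so that such a 0 does not measure the small RNA. For genes within introns, reads of the small RNA and of the unspliced host cannot be told apart in these counts. SNORA74D, within SNHG4, was at 0.932 and 0.375 CPM in Scr1 30min and 2.34 and 1.67 CPM in SIK3 30min (3.05-fold, adjusted p = 0.0231, edgeR), and at 1.15 and 0.949 against 3.52 and 1.99 CPM at 4 h (2.56-fold, adjusted p = 0.0378, edgeR). An Rfam snoRNA gene (RF00157) within MIR31HG was at 0.182 and 0.395 against 1.53 and 1.27 CPM at 4 h (4.92-fold, adjusted p = 0.0114, edgeR). SNORD99, within SNHG12, was at 3.12 and 3.09 CPM in SIK3 4h and at 0.102 to 1.52 CPM in the other 10 libraries, without a call. SCARNA13 and SNORA73B, the most abundant, ran from 6.79 to 18.0 and from 10.2 to 18.0 CPM. The hairpin genes of miR-221 and miR-222 within MIR222HG had 142 and 124 counts in all 12 libraries.

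MALAT1 stood apart from the hosts in level, while NEAT1 lay among them. Per kilobase of merged exon, the mean CPM of MALAT1 was 814, followed by SNHG6 with 62.4, SNHG16 with 43.1, GAS5 with 42.0 and SNHG5 with 38.2, while NEAT1 had 14.5. MALAT1 (chr11:65497688-65506516, plus strand) took 0.331 to 1.26% of the gene counts of a library.

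MALAT1 was at 3328 and 8391 CPM in Scr1 CLM, 4761 and 6797 CPM in Scr1 30min, and 4157 and 8135 CPM in Scr1 4h. In the SIK3 groups it was at 6513 and 9897 CPM, 4600 and 8810 CPM, and 8228 and 12608 CPM. Replicate 2 was higher than replicate 1 in all 6 groups, and the conditions overlapped. No comparison was called. At 4 h the log2 difference of MALAT1 between the siRNAs was 0.76 ± 0.49 (adjusted p = 0.254, edgeR), and without TNF 0.49 ± 0.49 (adjusted p = 0.48). With the replicate block both were called, at 0.81 (adjusted p = 2.25e-06) and 0.59 (adjusted p = 0.000119), as was the 4 h response under SIK3 siRNA at 0.34 (adjusted p = 0.0313).

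NEAT1 (chr11:65422774-65445540, plus strand) was at 147 and 241 CPM in Scr1 CLM, 246 and 287 CPM in Scr1 30min, and 288 and 389 CPM in Scr1 4h. In the SIK3 groups it was at 247 and 320 CPM, 224 and 347 CPM, and 575 and 648 CPM. The SIK3 4h libraries were the highest of all 12. NEAT1 was 1.81-fold higher in SIK3 4h than in Scr1 4h (log2 0.85 ± 0.27, adjusted p = 0.0318, edgeR), a call lost without Scr1 4h replicate 1 (adjusted p = 0.197), SIK3 4h replicate 1 (0.0711) or SIK3 4h replicate 2 (0.131). Its 4 h TNF response was 0.80 ± 0.27 under Scr1 (adjusted p = 0.118) and 1.11 ± 0.27 under SIK3 siRNA (adjusted p = 0.0545), and both passed with the replicate block (3.2e-07 and 6.18e-09, edgeR). The block also called its 30 min response under Scr1, at 0.49 (adjusted p = 0.00248).

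**Figure D4:**
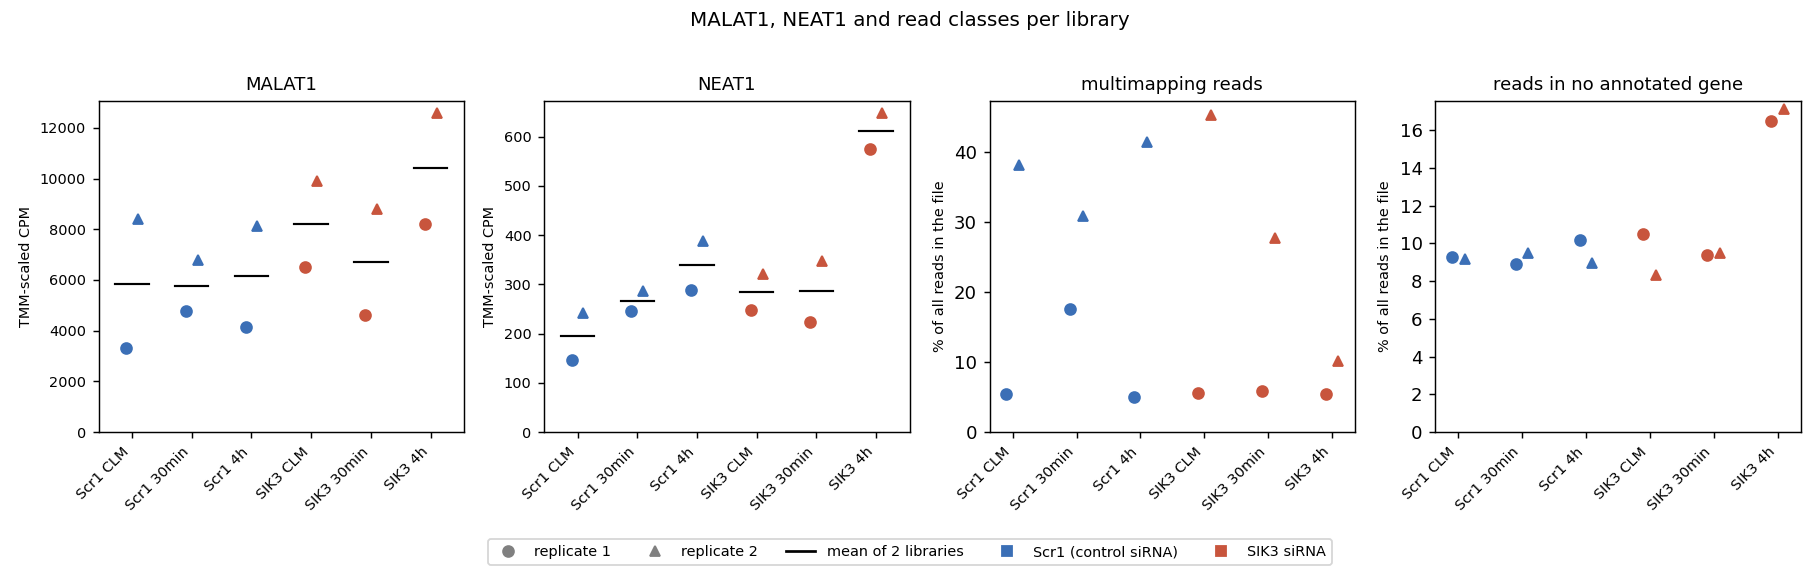
MALAT1 and NEAT1 in TMM-scaled CPM (2 left panels, axes from 0) and the shares of multimapping reads and of reads in no annotated gene (2 right panels, % of all reads) in each of the 12 libraries by condition; circles are replicate 1, triangles replicate 2, and bars in the left panels the mean of 2 libraries. Replicate 2 is above replicate 1 in every group for both genes and for multimapping reads, and SIK3 4h has 16.5 and 17.1% of reads in no gene.

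The replicate number moved with other members as well. Replicate 2 was higher in 6 of 6 groups for 5 members (MALAT1, NEAT1, SNHG14, SNHG17 and SNHG26, the last named after its values were seen), and replicate 1 was higher in 6 of 6 for 13, GAS5, SNHG1, SNHG6 and SNHG15 among them. The part of the multimapping share in these levels was not tested. Of 14 paraspeckle proteins, 0 were higher and 2 lower without TNF, and 0 and 4 at 30 min and at 4 h, with NUDT21, a cleavage factor, 2.01-fold and NONO 1.51-fold lower at 4 h. Of 13 nuclear speckle and splicing proteins, 0 were higher and 4, 4 and 3 lower at the 3 times, SRSF11 by 1.24-fold and SRSF7 by 1.28-fold at 4 h. Both lists compare the siRNAs, and of all genes tested 18.9, 18.2 and 19.6% were higher at the 3 times. The shares of all genes lower were 19.8, 19.6 and 19.9%.

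Whether the TNF response differed between the siRNAs was tested as an interaction. No member was called at 30 min (0% of all genes tested higher and 0% lower), with 5 at an unadjusted p under 0.05 by edgeR (11.1% of members and 1.9% of all genes) and 0 called by DESeq2. None was called at 4 h (0.719 and 0.845% of all genes tested), with 7 at an unadjusted p under 0.05 by edgeR (15.6% of members and 11.1% of all genes) and 1 called by DESeq2. The 4 h median over the members was 0.31, against 0.03 over all genes. With the replicate block 8 members were called at 4 h, each with a more positive 4 h difference under the SIK3 siRNA (17.8% of members, against 6.44% of all genes higher and 5.52% lower in that fit), and 0 at 30 min (0.0779 and 0.186% of all genes). For GAS5 the difference in response was 0.67 ± 0.26 without the block (adjusted p = 0.356, edgeR), and for SNHG3 it was 0.74 (adjusted p = 0.0707, edgeR).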

How the data were processed

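Total RNA of 12 PANC-1 libraries was extracted with RNeasy and DNase I and prepared with the ScriptSeq kit, per the labels' protocols. The deposited tables hold raw read counts for each gene and library. STAR 2.05b, edgeR and GRCh38 are named per the submitters' processing notes. The annotation release is not given in the sources used here. The counts were taken from the column that STAR gives without regard to strand. The 4 summary entries per file (unmapped, multimapping, no-feature and ambiguous reads, the last 1.76 to 4.78% of reads) were left out of library sizes. Symbols and positions came from GENCODE 29, which held 56927 of the 60669 identifiers, 51716 with the same version. Sequences came from RefSeq tables.

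The test was edgeR 4.0.16 in R 4.3.3 (filterByExpr with minimum count 10, TMM, quasi-likelihood fit of all 12 libraries, 6 residual degrees of freedom, no block), giving 7 pair comparisons and 2 interactions, with Benjamini-Hochberg adjustment over 16695 genes and a threshold of 0.05. Figures were made in Python 3.11.15. Simulated data with known changes were used to test the fit. The members and lists were chosen with earlier results of these data known. Named genes were MALAT1, NEAT1, GAS5, every member called in any comparison, the most abundant members not called, and up to 4 genes per list with the smallest p. A host symbol with a hyphen before its last number was accepted, and without those symbols 45 members remain.

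Whether replicate numbers pair the libraries was checked from the correlation over genes of same-numbered libraries, each as its deviation from its group mean. All 15 correlations exceeded 0.1 (0.35 to 0.53, median 0.421). The labels call the libraries biological replicates and say no more of their source. The fits were repeated with the replicate block, with size factors or the Wald test of DESeq2 1.42.0, with library totals, with no filter, with a filter of 1 CPM in 4 or more libraries, without each library, and with the conditions that the titles give. Conditions from the titles with the replicate block were added after seeing the data.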

Additional observations from a re-analysis of the deposited data

Results flagged for a closer look

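With the replicate number as a block, the difference between the siRNAs in the 4 h TNF response passed the threshold for 8 members, each with a more positive difference under the SIK3 siRNA, and for none of them without the block. Over all genes 6.44% were higher and 5.52% lower in the same test. The difference on the log2 scale was 0.73 for SNHG3, 0.59 for SNHG12, 0.68 for GAS5, 0.78 for SNHG7 and 0.73 for SNHG1, all snoRNA hosts. Among the microRNA hosts it was 1.32 for MIR181A1HG, 3.02 for MIR29B2CHG and 0.41 for MIR4435-2HG. The adjusted p of edgeR's test lay between 4.62e-06 (GAS5) and 0.0302 (MIR4435-2HG) with the block, and was 0.0707 for SNHG3 and 0.614 for SNHG7 without it. Both libraries of SIK3 4h also have 16.5 and 17.1% of their reads in no annotated gene, against 8.35 to 10.5% elsewhere. Multimapping reads were 10.15% in SIK3 4h replicate 2 and 27.8 to 45.3% in replicate 2 of the other groups. The block takes the replicate difference as alike in all groups. Of the 8 members, GAS5, SNHG1, SNHG7 and MIR4435-2HG were higher in replicate 1 in all 6 groups, and none was higher in replicate 2 in all 6. The part of these shares in the differences was not tested.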

How the results depend on the processing

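Over the 65 member calls, none reversed with the replicate block, DESeq2 size factors, the DESeq2 Wald test, library totals, no filter, the stricter filter or any 1 library left out. The block kept all 65 past the threshold. The DESeq2 test lost 7 (SNHG4 and MIR9-3HG without TNF, SNHG4 and MIR600HG at 30 min and SNHG11 at 4 h between siRNAs, MIR181A1HG and MIR181A2HG at 4 h of TNF). No filter lost 5 (both for SNHG4, MIR600HG, MIR181A1HG and SNHG16 at 4 h), size factors 3 (MIR181A1HG, MIR181A2HG and SNHG11) and library totals 1 (MIR181A1HG), and the stricter filter lost none of the 59 it tested. Of the 65, 36 held whichever library of their pair was left out and 29 were lost at least once. The fits with 1 library left out had no replicate block, although replicate numbers pair the libraries. The causes were not tested. Groups of 2 libraries and low counts (MIR155HG, MIR29B2CHG, MIR181A2HG, MIR381HG) limit precision. The block lost no call and added those counted next.

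Counts of members called with the replicate block were 2 and 10 for Scr1 30min and 4h against CLM, 2 and 20 for SIK3 30min and 4h against CLM, 27 and 29 for SIK3 against Scr1 at CLM and 30min, and 8 for the 4h interaction. Without a filter SIK3 4h against CLM gave 11 and the 4h interaction 3, and the DESeq2 test gave 1 for that interaction. Leaving out 1 library gave 1 to 1 for Scr1 30min and 2 to 3 for Scr1 4h against CLM, 0 to 0 for SIK3 30min and 2 to 5 for SIK3 4h against CLM. It gave 10 to 15, 7 to 10 and 18 to 21 for SIK3 against Scr1 at CLM, 30min and 4h, and 0 to 0 and 0 to 1 for the 30min and 4h interactions (the 1 without Scr1 CLM replicate 1). A lone library is then assumed to vary like the other groups.

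Conditions taken from the titles gave counts of 4 and 12 for control 30min and 4h against unstimulated, 19 and 27 for siAS1, 1 and 8 for siAS1 against control without TNF and at 4h, and 12 and 2 for the interactions. Of all genes tested, 8.99, 37.9, 40.1, 41.8, 0.294, 7.08, 28.5 and 3.45% were called in these comparisons. With the block these were 10 and 20, 28 and 34, 2 without TNF, 29 at 30min, and 25 and 19, against 23.5, 57.8, 59.8, 61.7, 2.78, 61.0, 50.4 and 20.2% of all genes. Under the titles 18 of the 65 calls reversed with and without the block, and 25 (16 with the block) were no longer called. Log2 values without and with the block follow. For siAS1 against control without TNF they were -0.27 and -0.26 for MIR100HG, -0.16 and -0.16 for MIR22HG, 0.21 and 0.18 for MIR29B2CHG, 2.24 and 2.23 for MIR3142HG, -0.0017 and -0.0074 for MIR31HG, -0.066 and -0.043 for MIR9-3HG, -0.096 and -0.085 for SNHG12, -0.28 and -0.27 for SNHG15, -0.48 and -0.47 for SNHG4, and -0.017 and -0.015 for SNHG5. At 30min they were -0.27 and -0.25 for MIR222HG and 0.049 and 0.043 for MIR600HG. At 4h they were 1.84 and 1.83 for MIR3142HG, -0.075 and -0.069 for MIR381HG, -0.12 and -0.12 for MIR4500HG, and -0.14 and -0.14 for SNHG14. For 4h against unstimulated MIR3142HG had -1.09 and -1.10 (control) and -1.49 and -1.49 (siAS1).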
